A study of Mus musculus with 10 samples.

Results

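The regions described here are sites of estrogen receptor alpha (ERα) binding that were called as peaks in every library of the arcuate nucleus and of the anteroventral periventricular nucleus (AVPV) but ranked higher in the arcuate. The 8 libraries held 25982 peaks, which merged into 8072 regions when peaks sharing at least 1 bp were joined, and 1089 of these regions had a peak in all 8 libraries. Within each library the fold enrichment of its highest peak in a region, a ratio over the local background, was turned into a percentile from 0 to 100 among the 1089 regions. Members were selected on these measured values, as the regions whose mean percentile over the 4 arcuate libraries exceeded the mean over the 4 AVPV libraries by at least 10 points. There were 293 such regions, or 26.9% of the 1089, and because the percentiles chose them, the percentiles are given as a description with no test.

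ERα was recovered with an antibody from chromatin of female C57BL/6 mice, and the recovered DNA was sequenced (ChIP-seq). All animals were ovariectomised and carried a Silastic implant of 17β-estradiol in sesame oil (0.1 mg/mL), and each was injected with estradiol benzoate (0.05 mg/kg) 28 h before tissues were taken. Both nuclei shared this treatment, and no vehicle-treated library was among those analysed, so the comparison is of 2 tissues and not of estradiol with its absence. The chromatin was pooled, the sources do not say whether each library came from a pool of its own, and the spread between libraries may therefore be technical. Peak lists hold no expression values, so the dissected tissue could not be checked against marker genes. At a given region, more cells with ERα bound there cannot be told apart from more binding per cell. Percentiles are ranks within a library, so a region can also rank higher because other regions rank lower.

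ERα is a nuclear receptor that, with estradiol bound, attaches as a dimer to DNA. Its preferred sequence, the estrogen response element, is a palindrome of the half-site AGGTCA, 3 bases of any kind and TGACCT, and the receptor also reaches DNA through other factors. Neurons that make kisspeptin are found in both nuclei, and those of the arcuate are known for the negative feedback of estrogen on gonadotropin secretion, those of the AVPV for the positive feedback.

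Response elements of members are printed first, because the element had no part in the rule and was more frequent among the members than among the other eight-library regions. Each line gives 45 bases of the plus strand of mm10 from RefSeq, and the capitals mark the 2 half-sites of the best match within 100 bp of the summit. The following 9 elements belong to members that were among the 12 with the largest differences. The other members of the 12 had no element.
Greb1, chr12:16764891-16764935, 2 mismatches: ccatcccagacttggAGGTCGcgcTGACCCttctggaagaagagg
Chst11, chr10:83104494-83104538, 1 mismatch: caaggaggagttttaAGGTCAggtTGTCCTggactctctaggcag
Il1rap, chr16:26594414-26594458, 2 mismatches: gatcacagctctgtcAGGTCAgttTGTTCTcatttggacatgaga
Ecel1, chr1:87164552-87164596, 2 mismatches: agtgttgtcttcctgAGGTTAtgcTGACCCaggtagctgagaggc
Tmem266, chr9:55361018-55361062, 2 mismatches: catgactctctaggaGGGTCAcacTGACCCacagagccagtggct
Csnk2a2, chr8:95496376-95496420, 1 mismatch: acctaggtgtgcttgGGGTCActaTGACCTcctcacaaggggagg
Fbxo31, chr8:121573124-121573168, 0 mismatches: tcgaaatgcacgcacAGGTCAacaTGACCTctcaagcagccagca
Macroh2a3, chr15:62295433-62295477, 2 mismatches: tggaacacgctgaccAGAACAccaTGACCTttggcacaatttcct
A330033J07Rik, chr13:48146059-48146103, 2 mismatches: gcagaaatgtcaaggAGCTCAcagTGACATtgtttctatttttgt

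Perfect palindromes were rarer. The next lines show those of the members with the largest differences that held such an element, apart from Fbxo31 above, and last the element at the promoter of Ebag9, which has 1 mismatch and was chosen after its values were seen.
Ell, chr8:70570531-70570575: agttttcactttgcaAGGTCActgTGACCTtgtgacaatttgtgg
Igkv4-55 segment, chr6:69607479-69607523: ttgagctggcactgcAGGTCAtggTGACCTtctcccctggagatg
Slco2a1, chr9:102997922-102997966: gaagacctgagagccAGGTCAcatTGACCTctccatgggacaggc
Map4, chr9:110073718-110073762: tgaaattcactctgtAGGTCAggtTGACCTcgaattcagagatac
Maco1, chr4:134817887-134817931: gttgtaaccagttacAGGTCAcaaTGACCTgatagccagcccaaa
Igkv4-70 segment, chr6:69268088-69268132: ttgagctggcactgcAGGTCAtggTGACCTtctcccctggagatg
Pfkfb3, chr2:11540426-11540470: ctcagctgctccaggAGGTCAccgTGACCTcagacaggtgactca
Ebag9, chr15:44619557-44619601: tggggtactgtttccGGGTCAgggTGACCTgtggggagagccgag

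The members covered a wide range of differences. Their median difference was 20.9 points (quartiles 14.9 and 28.2), and 151 members differed by at least 20 points, 69 by at least 30, 29 by at least 40 and 12 by at least 50. The median percentile of the members was 58.7, 57.5, 55.6 and 55.7 in arcuate libraries 1 to 4, and 26.1, 28.3, 29.0 and 29.8 in AVPV libraries 1 to 4. Members thus lay in the middle of the arcuate ranking and in the lower part of the AVPV ranking. Of the 293, 117 had an arcuate mean above 50 and an AVPV mean below it, 124 had both means below 50 and 52 had both above. In the upper 25 points of all 4 arcuate libraries were 34 members, and 55 were in the lower 25 points of all 4 AVPV libraries. Gm36109 was the only member in both of these classes. Neither class was counted over all eight-library regions, and the rule used the same percentiles, so these counts only describe the members.

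The rule itself kept the strongest shared sites out. A region with an AVPV mean above 90 cannot rank 10 points higher in the arcuate, and 94 of the 1089 regions had such a mean. Of the 140 regions with an AVPV mean of at least 85, 0 were members. The plot of mean percentiles shows this empty corner.

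**Figure D1:**
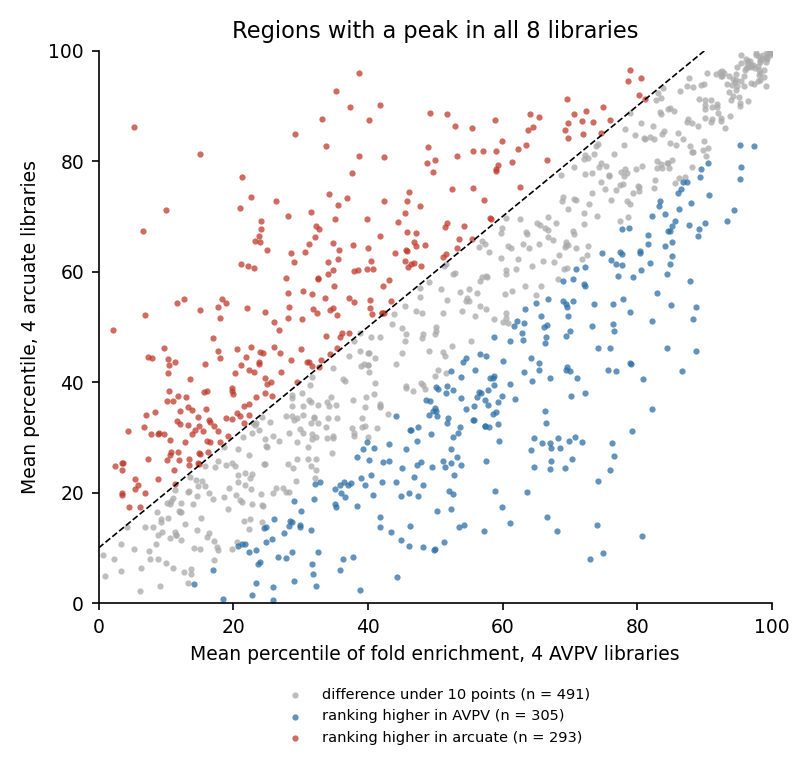
Mean percentile of fold enrichment over the 4 arcuate libraries (vertical axis) against that over the 4 AVPV libraries (horizontal axis) for the 1089 regions with a peak in all 8 libraries. Each point is a region, red for the 293 members, blue for the 305 regions ranking higher in AVPV by at least 10 points and grey for the 491 between, and the dashed line is the limit of 10 points, which leaves no room for members at the right end.

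A stricter look at the libraries asked whether the lowest arcuate percentile lay above the highest AVPV percentile. This held at 116 of the 1089 regions, or 10.7%, and 102 of these were members. The remaining 191 members had overlapping libraries. The converse, with every AVPV library above every arcuate library, held at 123 regions. Arcuate library 4 was the lowest of the 4 arcuate libraries at 102 members, more often than libraries 1 to 3 (79, 55 and 57 members). At 131 members arcuate libraries 1 to 3 all lay above every AVPV library, a count not made over all 1089 regions. The rule favours such an order, so this count is a description only. Over the 1089 regions, percentiles correlated with r of 0.646 to 0.821 between arcuate libraries, 0.775 to 0.844 between AVPV libraries and 0.532 to 0.688 between nuclei, as a description over regions that share a genome and not over samples.

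The limit cut through a continuous range. Just inside it were Hspa4, Gm15408 and Pim3, with differences of 10.14, 10.12 and 10.10 points, and just outside were Prkab1, Mrpl58 and Tbc1d7, with 9.995, 9.93 and 9.81. Pim3, a serine/threonine kinase gene, had promoter percentiles of 21.4, 41.9, 25.4 and 82.4 in the arcuate and 6.0, 56.3, 55.1 and 13.2 in the AVPV. Its libraries overlapped widely, and without arcuate library 4 the difference was -1.27 points, without AVPV library 1 it was 0.254 and without AVPV library 4 it was 3.59.

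The region with the largest difference was chr11:48760020-48760594, an intergenic site 39.1 kb from the start of Gm36109, a predicted gene. Its percentiles were 92.7, 81.6, 86.1 and 84.2 in the arcuate and 9.7, 2.0, 2.3 and 7.1 in the AVPV. The difference was 80.9 points, the lowest arcuate library lay 72.0 points above the highest AVPV library, and no response element was found in its window.

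Greb1, a well-known estrogen-induced gene whose product is a cofactor of ERα, held the region with the next largest difference, in an intron at chr12:16764613-16765284, 7.71 kb from a start site. Its percentiles were 77.8, 84.8, 88.8 and 73.4 in the arcuate and 22.6, 19.5, 12.5 and 5.6 in the AVPV. All arcuate libraries were above all AVPV libraries, and the means differed by 66.2 points. Another intronic Greb1 region with a peak in all 8 libraries, at chr12:16760091-16761153, ranked near the top in both nuclei (90.9 to 96.9 in the arcuate, 95.5 to 98.3 in the AVPV), and its difference was -2.73 points. The regions of Greb1 thus did not share the difference.

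Chst11, which encodes a chondroitin sulfotransferase, had an intronic region with percentiles of 83.7, 72.0, 77.0 and 52.0 in the arcuate and 10.8, 1.0, 4.3 and 24.2 in the AVPV. The difference was 61.1 points with no overlap between nuclei. A further intronic member of Chst11 differed by 15.6 points, and an intergenic region near it by 7.81. Il1rap, a subunit of the interleukin 1 receptor, had 86.2, 65.9, 73.7 and 43.6 in the arcuate and 3.7, 3.4, 11.9 and 7.1 in the AVPV, a difference of 60.8 points. Arcuate library 4 was the lowest arcuate library at both genes and still lay above every AVPV library.

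Ecel1, an endopeptidase-like gene of neurons, lay 8.38 kb from an intergenic member with percentiles of 95.1, 94.2, 93.9 and 87.9 in the arcuate and 38.5, 37.8, 44.3 and 20.5 in the AVPV. At an intronic region of Tmem266, which encodes a membrane protein, the values were 95.9, 97.9, 96.4 and 93.8 against 24.3, 49.3, 16.8 and 64.2. All arcuate libraries were in the upper 25 points of their ranking at both regions, and the AVPV libraries lay lower and further apart. The differences were 57.5 and 57.4 points.

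Csnk2a2, a catalytic subunit of casein kinase 2, had 82.4, 86.0, 86.1 and 84.9 in the arcuate at an intergenic region, against 35.7, 42.2, 16.1 and 22.5 in the AVPV. Fbxo31, a substrate receptor of a ubiquitin ligase, had 87.9, 93.2, 88.2 and 81.5 against 57.6, 25.97, 23.5 and 25.9, so that AVPV library 1 stood apart. Its region held the perfect palindrome printed above, 10 bp from the summit. The differences were 55.8 and 54.5 points.

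Lrp1b, a receptor of the low-density lipoprotein family, had regions with means in different directions. Its intronic member at chr2:41390748-41391256 had percentiles of 94.8, 88.9, 92.7 and 82.7 in the arcuate and 60.9, 17.2, 41.5 and 29.8 in the AVPV, a difference of 52.4 points. A different intronic region differed by 1.70 points, and another, at chr2:42008262-42008745, had a higher mean in AVPV (-31.9 points), with overlapping libraries (9.33 to 51.7 in the arcuate, 30.9 to 82.3 in the AVPV). Slco2a1, a prostaglandin transporter gene, also had a member (27.9 points) and a region with a higher mean in AVPV (-30.5 points), 15.7 kb from its start, whose libraries overlapped (1.38 to 32.5 in the arcuate, 25.0 to 67.9 in the AVPV). At the Slco2a1 member arcuate library 4 was at 4.3 and the other arcuate libraries were at 81.4, 56.5 and 40.5, while the AVPV libraries were between 13.2 and 22.5. Without arcuate library 1 this difference was 16.1 points, and without arcuate library 4 it was 43.4.

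The remaining regions of the 12 lay in introns of Gramd1b (55.8 points) and of A330033J07Rik (50.5 points) and 76.0 kb from Macroh2a3 (50.8 points). None of the 12 was at a promoter. All 12 had arcuate libraries above all AVPV libraries, by 9.51 to 72.0 points. With percentiles among all regions of a library in place of the 1089, the differences stayed above the limit but were 29.5 points at Ecel1, 30.6 at Tmem266, 32.2 at Csnk2a2, 29.7 at Fbxo31 and 29.2 at Lrp1b. With the -log10 p-value ranked, that of Ecel1 was 35.9.

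**Figure D2:**
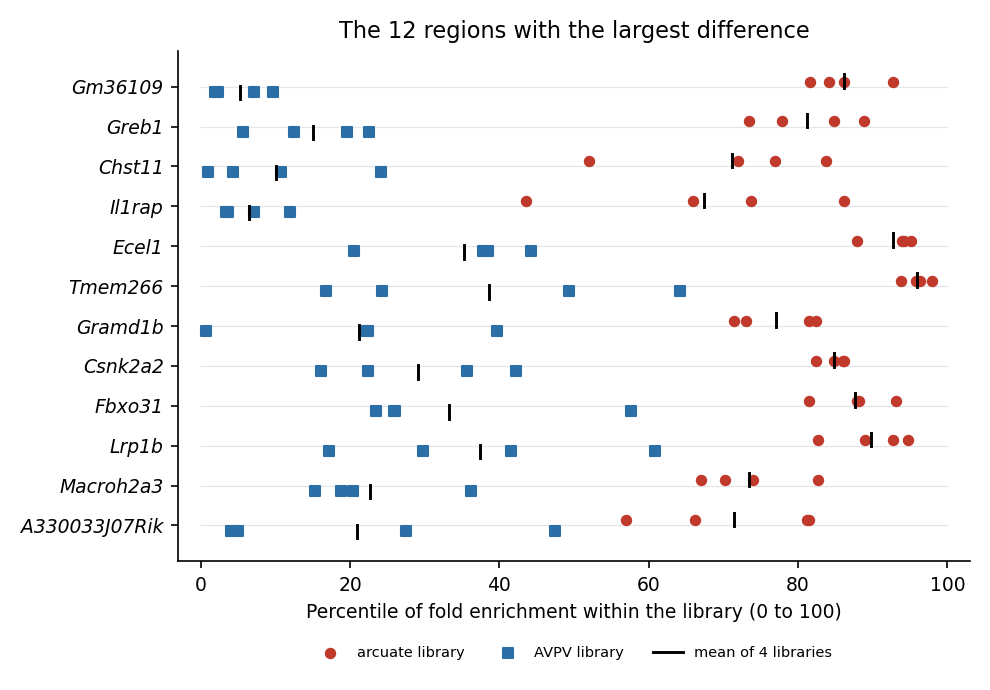
Percentile of fold enrichment within each library (horizontal axis, 0 to 100) for the 12 members with the largest difference, named by gene. Red circles are the 4 arcuate libraries, blue squares the 4 AVPV libraries and black bars their means, and no blue square reaches a red circle of the same region.

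Genes of 10 lists of neuronal and endocrine functions (526 genes) had 37 regions with a peak in all 8 libraries, and 15 of these were members. That share was 40.5%, beside 26.9% for all 1089 regions, and with counts of this size it is a description only. Ion channel genes held 6 members among 9 regions. Cacna2d3, an auxiliary subunit of voltage-gated calcium channels, had an intronic region with 66.6, 68.5, 77.8 and 63.6 in the arcuate and 23.4, 9.1, 33.2 and 30.7 in the AVPV, a difference of 45.0 points without overlap. Its intergenic member, 76.5 kb from the start, differed by 21.5 points, but AVPV library 2 at 64.9 exceeded every arcuate library. Without AVPV library 4 this difference was 13.8 points, and without AVPV library 2 it was 35.9. Cacna1g, the pore of a T-type calcium channel that carries low-threshold currents, had 71.0, 49.3, 57.0 and 76.4 against 27.1, 2.2, 38.8 and 46.4 at an intronic region, a difference of 34.8 points without overlap, and of 19.4 with the -log10 p-value ranked. The other channel members were Kcnip1, a subunit of A-type potassium channels (27.9 points), Itpr2, a calcium release channel (19.8), and Trpm3, a cation channel (16.1). Itpr2 differed by 11.5 points without AVPV library 2. Only Kcnip1 among these last 3 had no overlap, with 0.87 points between the nearest libraries of the nuclei.

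Genes of cAMP, calcium and G-protein signalling held 3 members among 8 regions. Camk2b, a subunit of the calcium/calmodulin-dependent kinase II, had intronic percentiles of 78.0, 88.5, 83.4 and 80.3 in the arcuate and 57.6, 44.9, 24.2 and 69.0 in the AVPV, a difference of 33.6 points without overlap, and of 17.5 with percentiles among all regions. Rgs7, which shortens G-protein signals, differed by 34.2 points and Prkce, a protein kinase C, by 16.8 points, both with overlapping libraries. A second Prkce region ranked high in both nuclei and differed by 0.563 points.

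Both regions of the activity-induced transcription factor list were members, at Fos and Fosb, immediate early genes whose products are part of AP-1. The Fos region, 12.03 kb from the gene's start, had 36.6, 65.4, 26.7 and 31.6 in the arcuate and 21.4, 23.5, 12.04 and 45.7 in the AVPV. The Fosb region, at 9.85 kb, had 17.0, 43.5, 4.0 and 13.97 against 0.0, 13.2, 0.1 and 0.3. Arcuate library 2 was the highest at both. The differences of 14.4 and 16.2 points came down to 6.20 and 8.58 without that library, below the limit of the rule, and that of Fos to 9.62 without AVPV library 3.

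Of the other lists, the classic estrogen targets held 2 members among 7 regions, Greb1 and Fos. Nuclear receptors and coregulators held 1 of 3, an intergenic region 66.8 kb from the start of Tle3, a corepressor gene. It differed by 26.1 points without overlap, and by 13.3 with percentiles among all regions. Transmitter receptors and transporters held 1 of 4, at Gria1, an AMPA receptor subunit (17.5 points, and 9.91 without AVPV library 4). Hypothalamic peptides and their receptors held 0 of 4, and Wnt, FGF, TGF-beta and axon guidance genes 0 of 1. Clock genes had no region with a peak in all 8 libraries.

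The members with the highest level over all 8 libraries differed by 10.12 to 17.6 points. Tsnax, whose product binds translin, had promoter percentiles of 96.5, 96.1, 96.05 and 97.5 in the arcuate and 74.1, 71.5, 83.1 and 87.2 in the AVPV (17.6 points). Rai1 (15.8 points), an intergenic region of chromosome 5 with no gene within 100 kb (14.5 points) and Gm15408 (10.12 points) were also without overlap. At Ddx18, an RNA helicase gene, AVPV library 4 was at 55.4 and the other AVPV libraries between 87.2 and 91.1, and without it the difference of 11.7 points was 3.32. All 5 fell below the limit when percentiles were taken among all regions of the library, to 7.78 points at Tsnax, 7.24 at Rai1, 6.18 at the chromosome 5 region, 5.60 at Ddx18 and 4.93 at Gm15408. With the -log10 p-value ranked, Tsnax was at 4.48, Rai1 at 8.27, the chromosome 5 region at 7.18 and Ddx18 at 5.24.

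The position of the members in genes had no part in their selection. Promoters, which reached here from 1 kb before to 100 bp past a start site, held 79 of 293 members (27.0%, 95% Wilson interval 22.2 to 32.3), against 43.1% of all 1089 regions, 45.9% (40.4 to 51.5) of the 305 regions ranking higher in AVPV and 50.9% (46.5 to 55.3) of the 491 between. Introns held 31.7% of members and 25.5% of all regions, and intergenic sequence 31.1% and 21.2%. The share of intergenic sites was 18.4% (14.4 to 23.1) among regions ranking higher in AVPV, below the interval of the members (26.03 to 36.6). The median member lay 8344 bp from the nearest start site, and the median region ranking higher in AVPV 217 bp. The share of members among promoter regions was 16.8% of 469 and among other regions 34.5% of 620. All these intervals cover counting error over regions alone, and regions of the same libraries are not independent replicates.

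Response elements were more frequent among the members than in the other sets, as shares of regions with no test of the difference. With at most 2 mismatches in 12 fixed bases within 100 bp of the summit, 147 of 293 members had an element (50.2%, 44.5 to 55.9), against 33.3% of all 1089 regions, 30.8% (25.9 to 36.2) of regions ranking higher in AVPV and 24.8% (21.2 to 28.9) of those between. In windows moved by 5 kb, 1.71% of members and 1.29% of all regions had a match. Part of the contrast went with position. Outside promoters, the shares were 64.0% (57.4 to 70.1) of members, 55.2% (47.5 to 62.5) of regions ranking higher in AVPV and 47.7% (41.5 to 54.0) of those between, so that the members and the AVPV set were no longer apart by their intervals. Among regions of mean percentile 25 to 75, which removes the extremes of the ranking, the shares were 51.4% (44.7 to 58.1), 33.6% (27.9 to 39.9) and 31.7% (25.8 to 38.1).

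**Figure D3:**
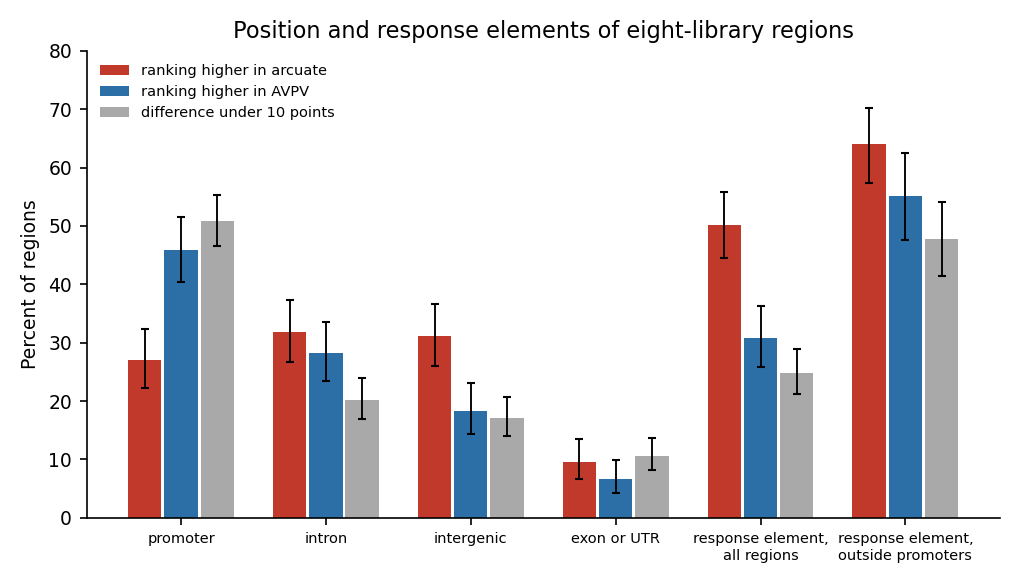
Percent of regions (vertical axis) at promoters, in introns, in intergenic sequence, in exons or UTRs, and with an estrogen response element, for the 293 members (red), the 305 regions ranking higher in AVPV (blue) and the 491 between (grey). Bars start at 0 and black lines are 95% Wilson intervals. Members had the lowest bar at promoters, 27.0%, and the highest for response elements, 50.2% over all regions and 64.0% outside promoters.

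The share also varied among the members themselves. It was 63.8% (52.0 to 74.1) of the 69 members with a difference of at least 30 points, 46.3% (36.0 to 57.1) of those from 20 to 30 and 45.8% (37.8 to 54.0) of those from 10 to 20. It was 62.7% (53.1 to 71.5) of the 102 members without overlap and 43.5% (36.6 to 50.5) of the 191 with overlap. The share at promoters, where elements were fewer, varied too, but its intervals overlapped. It was 15.9% (9.14 to 26.3) for differences of at least 30 points. From 20 to 30 it was 35.4% (25.9 to 46.2), and from 10 to 20 it was 27.5% (20.8 to 35.3). For members without overlap it was 22.5% (15.5 to 31.6), and for those with overlap 29.3% (23.3 to 36.1). Whether position accounts for these element shares was not tested. Most of the matches were imperfect. A perfect palindrome was the best match in 15 members, 1 mismatch in 54 and 2 mismatches in 78. The share of members was 33.3% of the 45 regions with a perfect palindrome, 38.3% of 141 with 1 mismatch, 44.1% of 177 with 2 mismatches and 20.1% of 726 without a match. The shares of perfect palindromes among members (5.12%, 3.13 to 8.27) and among all regions (4.13%, 3.10 to 5.48) had overlapping intervals. The printed element of Greb1, with changes in both half-sites, was thus of the commonest kind among the members.

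The elements lay close to the summits. Their middle was a median of 15 bp from the median summit of the 8 libraries in members, 11 bp in regions ranking higher in AVPV and 12 bp in those between. The plot of element positions shows a peak at 0 bp in all 3 sets.

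**Figure D4:**
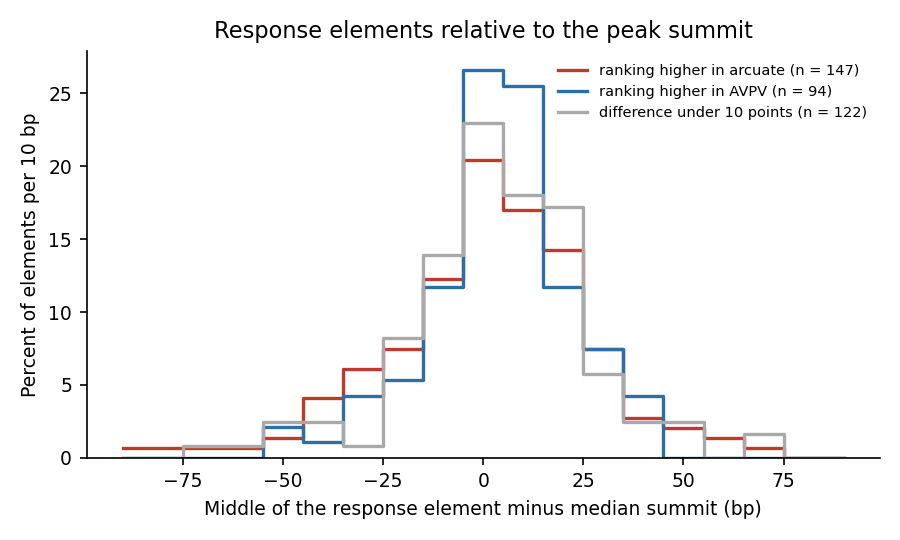
Distance from the median summit to the middle of the best response element (horizontal axis, bp) as percent of elements per 10 bp (vertical axis), for 147 members (red), 94 regions ranking higher in AVPV (blue) and 122 between (grey). All 3 lines are highest in the bin around 0 bp.

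Elements at promoters were few. They were found at 10 of 79 promoter members (12.7%, 7.02 to 21.8), 3 of 140 promoters ranking higher in AVPV (2.14%, 0.731 to 6.11) and 7 of 250 promoters between (2.80%, 1.36 to 5.67). Ebag9, named for its estrogen receptor binding site, had the largest difference of these 10, and its element is printed above. Its promoter percentiles were 68.1, 65.9, 71.6 and 85.6 in the arcuate and 0.46, 31.8, 49.5 and 23.8 in the AVPV, and its means differed by 46.4 points without overlap. Lsamp, a neuronal adhesion molecule, had 44.7, 53.2, 24.4 and 50.5 against 11.7, 3.3, 6.8 and 20.1 at its promoter (32.7 points). The largest difference at any promoter, 47.4 points, was at the promoter of Mettl23 and Jmjd6, where no element was found and the AVPV percentiles were 1.6, 0.0, 6.3 and 0.8. These promoters were singled out after their values were seen.

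A group of near-identical sequences held 3 of the 15 members with a perfect palindrome. All 5 eight-library regions of Igk, the immunoglobulin kappa locus (chr6:67555636-70726754), had a perfect palindrome, and each overlapped a variable segment of the Igkv4 family. The members overlapped Igkv4-55 (32.2 points), Igkv4-70 (21.8 points) and Igkv4-77 (11.2 points), and the other regions Igkv4-59 (7.43 points) and Igkv4-54 (1.15 points). Apart from Igkv4-59 with Igkv4-54, a pair without a value here, pairs of these regions shared 95.7% to 98.3% of 115 bases around the element. The 45 bases printed for Igkv4-55 and Igkv4-70 were the same. Reads from such copies can be placed on either, so the percentiles of these regions are uncertain. At Igkv4-55 they were 50.8, 55.2, 44.7 and 23.7 in the arcuate and 12.2, 2.9, 19.3 and 11.1 in the AVPV.

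Other short motifs were searched on both strands in the same windows. The AP-1 motif TGANTCA was in 7.51% of members and 6.06% of all regions, and in 5.80% of members in windows moved by 5 kb. The NF-Y box CCAAT was in 16.4% of members, 24.9% of regions ranking higher in AVPV and 18.9% of all regions. In windows moved by 5 kb these shares were 22.9%, 29.5% and 24.4%, so the contrast between the sets was also present away from the summits. The GC box GGGCGG was in 17.7%, 26.2% and 23.8%, and the ETS motif CCGGAAG in 23.2%, 23.9% and 25.7%. In moved windows the GC box was in 2.39%, 2.95% and 2.39%, and the ETS motif in 1.37%, 0.656% and 0.918%. GC boxes and ETS motifs are common at promoters, which were fewer among the members. Whether this accounts for the GC box shares was not tested. The median ratio of observed to expected CpG was 0.36 in members, 0.69 in regions ranking higher in AVPV and 0.68 in all regions, but at promoters alone it was 0.91 in members and 0.88 in all.

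The same percentiles can be averaged over all regions with a feature, which is a description with no test, since these values and libraries also chose the members. The mean percentile of all 363 regions with a response element, members included, was 56.2, 54.1, 49.7 and 41.8 in the arcuate libraries and 44.0, 46.8, 40.7 and 51.1 in the AVPV libraries. The means were 50.4 ± 6.36 and 45.7 ± 4.42 (SD, n = 4), a difference of 4.79 points with overlapping libraries. For the 469 promoter regions the means were 51.3 ± 3.76 and 55.2 ± 3.01 (SD, n = 4), also with overlapping libraries. Arcuate library 4 had the lowest arcuate value for elements and the highest for promoters, and AVPV library 4 the highest AVPV value for elements and the lowest for promoters. The share of elements among the members moved with these libraries: it was 57.7% when arcuate library 4 was left out of the selection and 43.8% without arcuate library 1. The share of members at promoters was 22.5% and 35.4% in these selections. Element and promoter values are not independent observations. Of the 363 regions with an element, 343 lay outside promoters, and both means come from 1 ranking of the same regions in each library.

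Each library's other peaks, those not in eight-library regions, were not ranked by the rule, and their share near the members was counted. Peaks lying 2 to 100 kb from a member were 5.77%, 5.91%, 5.84% and 4.80% of the other peaks of the arcuate libraries and 5.31%, 4.70%, 4.97% and 5.04% of the AVPV libraries. Arcuate libraries 1 to 3 were above all AVPV libraries and arcuate library 4 was not. The means were 5.58% ± 0.523 and 5.00% ± 0.253 (SD, n = 4), a difference of 0.576 percentage points (exact two-sided permutation p = 0.114, adjusted p = 0.229). Near the regions ranking higher in AVPV the means were 4.41% ± 0.0913 in the arcuate and 5.07% ± 0.483 in the AVPV (exact permutation p = 0.0571, adjusted p = 0.229). Neither difference passed the test, whose smallest p over the 70 assignments of 8 libraries to 4 and 4 is 0.0286. Both sets of regions were chosen from these same libraries with their nuclei known, and the permutations kept the sets fixed. The p-values are therefore not those of an independent measure, and no conclusion is drawn from them.

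**Figure D5:**
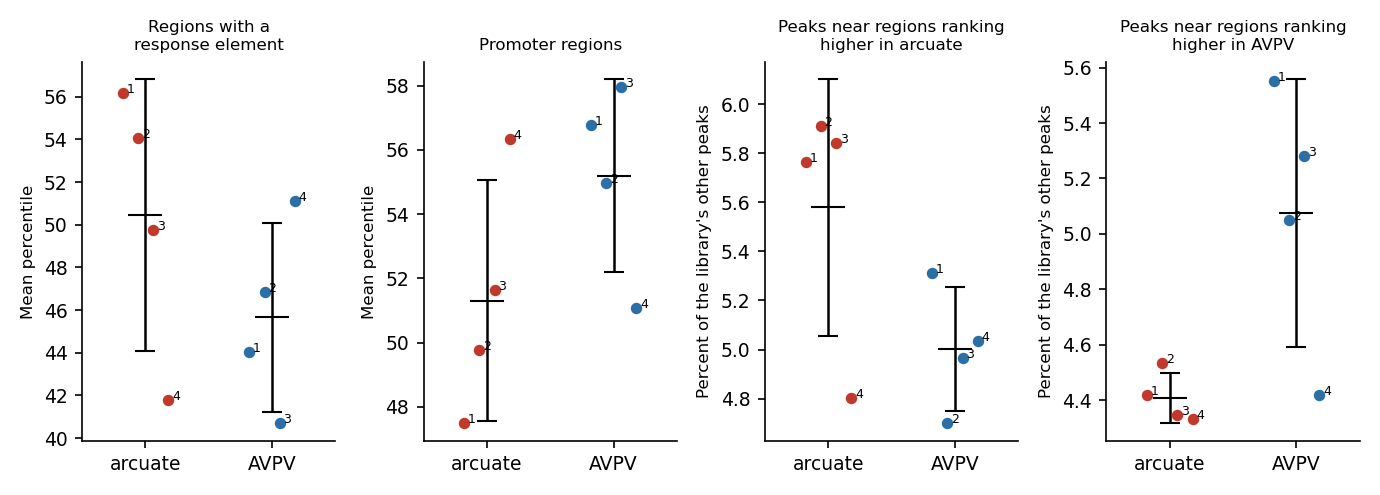
Values of the 8 libraries, numbered by replicate, for 4 measures: mean percentile of regions with a response element, mean percentile of promoter regions, and the percent of a library's other peaks lying 2 to 100 kb from members or from regions ranking higher in AVPV. Red points are arcuate and blue points AVPV libraries, black lines are the mean ± SD of 4 libraries, the vertical axes do not start at 0, and the nuclei overlap in every panel.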

How the data were processed

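ERα ChIP-seq peak lists of 4 arcuate and 4 AVPV libraries were analysed, grouped by the sample labels. Per the labels and the methods of the study, the authors aligned 75-nt reads to mm10 with Bowtie2 2.5.0, and called peaks separately for each library with MACS2 2.2.7.1 (false discovery rate 5%). The submitters' processing notes also name deepTools 3.5. The deposited fold enrichment is a ratio of pileup to local background. The deposited -log10 p-value and -log10 q-value were used only to rank or filter peaks. The deposited score was not used. The lists hold 2367 to 4079 peaks a library and no reads, so the depth behind each value is unknown. A ratio over each library's own background is comparable within a list only, which is why percentiles were used. Input libraries were not analysed here.

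Regions were annotated in the order promoter, transcript end, exon or UTR, intron and intergenic, from 45756 transcripts that RefSeq gives for GRCm38.p6. A region centred in a promoter, transcript end, exon, UTR or intron was given the gene of that feature. An intergenic region was given the gene with the nearest start site within 100 kb. Python 3.11.15, numpy 2.4.6, scipy 1.17.1, pysam 0.24.0 and matplotlib 3.10.9 were used, and the procedures were tested on simulated data. Tests were exact two-sided permutations of 1 value per library, adjusted by Benjamini-Hochberg over 4 measures. The permutations did not repeat the choice of members, which came from the same libraries. The p-values of 2 of the measures, which average the percentiles used by the rule, are not given. Named regions were the 12 largest differences, 3 on each side of the limit, members at listed genes, the 5 highest levels, up to 8 perfect palindromes and the 5 widest gaps between nuclei. A result that this rule names is not reported here. The members and the gene lists were chosen with earlier results of these data known. Alternatives were other ranking values, filters, limits and element rules, leaving out libraries in turn and a replicate block.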

Additional observations from a re-analysis of the deposited data

Results flagged for a closer look

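Among 94 groups of 4 libraries, 7 had a library far from the other 3, and chance alone flags about 1 in 20 groups. Arcuate library 4 stood apart in the share of its other peaks near members, at 4.80% against 5.77% to 5.91% in the other arcuate libraries, and at Ecel1, with a percentile of 87.9 against 93.9 to 95.1. AVPV library 4 was the lowest of its nucleus at Ddx18 (55.4 against 87.2 to 91.1), at Prkab1 (21.6 against 43.4 to 46.1) and at Tbc1d7 (60.7 against 83.3 to 86.0). Of these 3 regions, the first lay inside the limit of the rule and the others just outside it. AVPV library 1 was the highest of its nucleus at Fbxo31 (57.6 against 23.5 to 25.97), and AVPV library 2 at Fosb (13.2 against 0 to 0.276).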

How the results depend on the processing

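The number of members was 217 with a limit of 15 points and 395 with 5, 255 with the -log10 p-value or the -log10 q-value ranked, 324 with percentiles among all regions of the library, 230 with fold enrichment above 5 only, and 296 to 333 when a library was left out. Regions without overlap numbered 132 to 160 with a library left out, where fewer libraries have to be separated. Of the 293 members, 81.9% were also members by -log10 p-value, 68.6% with fold enrichment above 5 only and 89.8% to 94.5% without 1 library. The share of members with a response element was 56.9% with either -log10 value ranked, 23.5% with 1 mismatch allowed, 63.1% with 3 and 43.8% to 57.7% without 1 library. The promoter share was 20.4% with either -log10 value ranked, 42.0% with a promoter of 2 kb on both sides and 22.5% to 35.4% without 1 library. Other mismatch limits and a wider promoter also change the shares of all eight-library regions, which are not given for these settings. The member shares at these settings therefore cannot be set beside the shares of all regions stated above. The difference in mean percentile of promoter regions turned from -3.88 to 0.587 points with percentiles among all regions, and the cause was not tested.

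Without 1 library the difference was 2.93 to 6.41 points for element regions, -5.01 to -2.58 for promoter regions, 0.382 to 0.855 percentage points for peaks near members and -1.03 to -0.195 near regions ranking higher in AVPV. Over all alternatives the lowest adjusted p of the neighbouring peaks was 0.114. With fold enrichment above 5 only, the difference near members was 0.802 percentage points (exact permutation p = 0.0286, the smallest possible, adjusted p = 0.114). The members of that setting were also chosen from the same libraries, so this p is not that of an independent measure.

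Replicate numbers did not pair the libraries: deviations of same-numbered libraries correlated with r of -0.322 to 0.0898, and 1 of 4 arcuate libraries correlated best with its own number. With the replicate block the differences were the same (4.79, -3.88, 0.576 and -0.668) and the exact sign-flip p of the measures of neighbouring peaks was 0.25 and 0.125, where 0.125 is the smallest that 4 pairs allow.

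Of 40 named members, 33 stayed at or above 10 points without each library in turn. Under every alternative in which they still had a peak in all libraries, 30 did so. A region that lost a peak under an alternative had no value there and was not counted against this. Gm36109, for example, had values under 14 of 15 alternatives and none with fold enrichment above 5 only. Percentiles among all regions moved differences both ways: they were lower at Pfkfb3 (10.4 points) and higher at Kcnip1 (43.3), Map4 (39.6), Fosb (41.4) and Trpm3 (29.1). Pim3 turned to -0.528 points with medians over libraries and lay between -1.27 (without arcuate library 4) and 18.01 (without AVPV library 2) with a library left out. Hspa4 was at 6.07 points without arcuate library 3, and Gm15408 at 9.15 without arcuate library 4. The unknown depth limits any statement on regions without a called peak, which were not used here.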
